A study of Homo sapiens with 2 samples.

Results

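The genes described here are 42 genes of mitosis: the CDK1 switch with its cyclins and regulators, the Polo, Aurora and other mitotic kinases with 2 of their activators, the chromosomal passenger subunits, the spindle checkpoint, chromosome and spindle genes with the proliferation marker MKI67, cytokinesis genes, the transcription factors FOXM1 and MYBL2, and the genes of sister chromatid separation. They were taken by name, by current or older symbol, from 29819 named genes measured in both libraries, and all 42 were found. SGO1 and SGO2 are the current symbols of the shugoshin genes listed as SGOL1 and SGOL2.

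Poly(A) RNA came from U2OS, a human osteosarcoma line, in a recombinant form that carries the G1S-CCPM marker of cell cycle phase and stably makes Cas9, the nuclease used for genome editing, from a CAG promoter. Both libraries were made from untreated cells grown with geneticin, an antibiotic used to keep a resistance marker selected. They form 1 group of 2 replicates, so there is no contrast between conditions and nothing was tested. No label states that the replicates come from separate cultures, and their spread may be technical.

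Entry into mitosis is driven by CDK1 bound to a B-type cyclin. WEE1 and PKMYT1 hold CDK1 back by phosphorylation, CDC25 phosphatases release it, and MASTL acts through ENSA to keep the opposing phosphatase PP2A-B55 off. Polo and Aurora kinases then build the spindle, the checkpoint holds anaphase until every kinetochore is attached, separase (ESPL1) cuts cohesin once securin (PTTG1) is destroyed, and a contractile ring divides the cell. Transcripts of many of these genes are made late in the cycle, when the MuvB complex with MYBL2 and FOXM1 acts through promoter elements named CHR (cell cycle genes homology region), often beside CCAAT boxes that NF-Y binds.

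Promoter sequence is shown first, since the choice by name did not read it. CHR and CCAAT elements were already known for many such genes, as described above, so their shares here are not independent of that choice. A RefSeq table (GRCh38.p14) held 40 promoters of 32 of the 42 genes, each 300 bases long, with 250 bases before the transcript start and 50 after it. The letters TTTGAA, the CHR hexamer, and CCAAT, the NF-Y pentamer, were searched on both strands, so that TTCAAA and ATTGG also count. The start sites are those of RefSeq and were not measured in these cells. They can differ from the ends of the loci whose levels are given below. The CCNB1 locus begins at 69167010, before its printed window, which therefore lies inside the locus. So does the CDK1 window, and by much further: its locus begins at 60772976 and its window at 60778348. The MKI67 locus, on the minus strand, ends at 128126204, short of its window. Distances from the start hold for the RefSeq sites only. In the 150 bases from 130 before to 20 after the start, printed 5′ to 3′ on the strand of the gene, capitals mark these 2 motifs and everything else is in lower case. The 10 genes were picked after the matches were seen, to show promoters with the hexamer near the start (CDK1, CCNB2, PLK1, INCENP, MKI67, PRC1, ESPL1), a hexamer with no pentamer (BUB1B) and pentamers with no hexamer (CCNB1, PTTG1).
CCNB1 (chr5:69167020-69167169, plus strand): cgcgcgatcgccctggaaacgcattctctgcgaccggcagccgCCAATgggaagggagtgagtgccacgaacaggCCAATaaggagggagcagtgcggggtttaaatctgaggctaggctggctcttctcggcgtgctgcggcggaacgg
CDK1 (chr10:60778348-60778497, plus strand): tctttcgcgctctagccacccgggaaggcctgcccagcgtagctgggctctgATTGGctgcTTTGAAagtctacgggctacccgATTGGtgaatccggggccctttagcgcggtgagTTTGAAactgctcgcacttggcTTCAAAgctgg
CCNB2 (chr15:59105016-59105165, plus strand): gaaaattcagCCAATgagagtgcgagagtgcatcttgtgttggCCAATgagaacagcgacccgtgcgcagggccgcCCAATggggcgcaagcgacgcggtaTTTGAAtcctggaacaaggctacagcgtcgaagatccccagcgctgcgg
PLK1 (chr16:23678759-23678908, plus strand): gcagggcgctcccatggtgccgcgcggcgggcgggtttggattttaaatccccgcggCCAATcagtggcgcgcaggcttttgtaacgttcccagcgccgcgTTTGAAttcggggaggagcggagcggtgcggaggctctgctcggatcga
INCENP (chr11:62123881-62124030, plus strand): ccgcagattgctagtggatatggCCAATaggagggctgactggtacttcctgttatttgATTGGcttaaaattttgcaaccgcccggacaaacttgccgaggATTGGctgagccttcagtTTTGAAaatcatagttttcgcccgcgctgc
BUB1B (chr15:40160939-40161088, plus strand): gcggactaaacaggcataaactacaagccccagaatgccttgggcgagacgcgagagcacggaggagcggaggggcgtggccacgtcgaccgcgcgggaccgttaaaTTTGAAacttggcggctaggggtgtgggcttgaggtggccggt
MKI67 (chr10:128126404-128126553, minus strand): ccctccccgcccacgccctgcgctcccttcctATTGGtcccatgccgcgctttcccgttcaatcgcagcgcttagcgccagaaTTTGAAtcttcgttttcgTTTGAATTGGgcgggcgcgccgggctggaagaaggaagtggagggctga
PRC1 (chr15:90994516-90994665, minus strand): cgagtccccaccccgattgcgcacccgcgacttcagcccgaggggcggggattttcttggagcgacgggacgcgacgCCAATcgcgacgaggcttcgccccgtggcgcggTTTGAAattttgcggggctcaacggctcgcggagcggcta
PTTG1 (chr5:160421725-160421874, plus strand): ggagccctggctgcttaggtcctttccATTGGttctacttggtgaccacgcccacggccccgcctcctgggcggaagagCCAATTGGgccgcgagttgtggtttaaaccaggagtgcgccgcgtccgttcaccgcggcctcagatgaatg
ESPL1 (chr12:53268169-53268318, plus strand): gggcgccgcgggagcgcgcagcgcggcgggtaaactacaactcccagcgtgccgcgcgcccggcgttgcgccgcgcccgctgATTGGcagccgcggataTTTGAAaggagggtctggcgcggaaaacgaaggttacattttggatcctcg

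In the CDK1 window 3 hexamers and 2 pentamers were present, and the MKI67 window held 2 hexamers, the second of which shares letters with an ATTGG. The CCAAT and ATTGG of PTTG1 overlap in the same way. Cyclin B1 and cyclin B2, close relatives that both pair with CDK1, differed here: the CCNB2 window held 1 hexamer and 3 pentamers, and that of CCNB1 held 2 pentamers and 0 hexamers. A missing match says only that these letters are not in the window.

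Of the 32 genes with a promoter, 22 (68.8%) held TTTGAA. The share was 18.2% of all 27305 genes with a promoter in the table and 13.7% of the 9367 genes with a promoter that reached FPKM 1 in both libraries. FPKM, the unit of every level below, is the number of fragments scaled by transcript length and by the mapped fragments of the library. Among 27 replication genes, 1 (3.70%) held the hexamer. CCAAT was present in 27 of the 32 mitotic genes (84.4%), in 17 of the 27 replication genes (63.0%), in 43.4% of the genes at FPKM 1 or more and in 39.7% of all genes. E2F-type heptamers were searched on both strands as TTGGCGC and its variants in the central letters, namely TTCCCGC, then TTGCCGC, and also TTCGCGC. At least 1 of them was present in 9 of 32 mitotic genes (28.1%), in 23 of 27 replication genes (85.2%), in 25.7% of the genes at FPKM 1 or more and in 15.3% of all genes. The heptamer TTGGCGC may share letters with the pentamer. Replication and mitotic genes, both periodic in the cycle, thus differed in which letters their promoters held, and this is a description of sequence with no test.

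**Figure D1:**
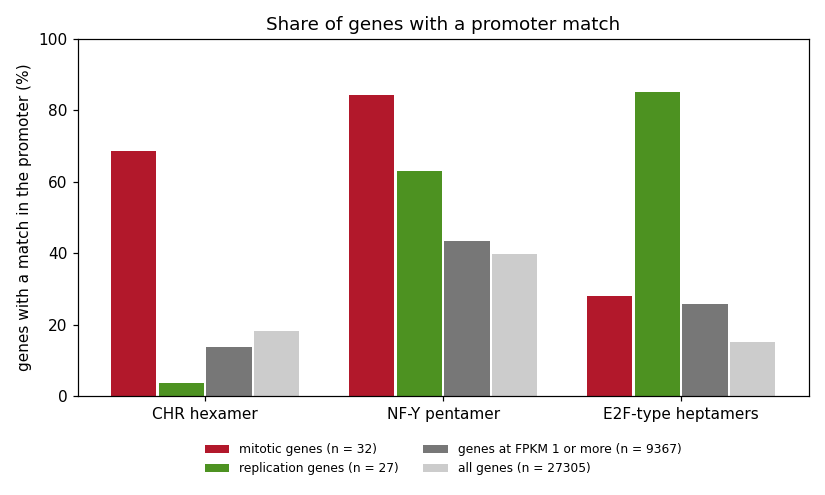
Bars give the percent of genes with at least 1 match in a 300-base RefSeq promoter, for mitotic genes, replication genes, genes at FPKM 1 or more in both libraries and all genes. The CHR hexamer was in 68.8% of mitotic genes and 3.70% of replication genes, and the E2F-type heptamers were in 28.1% and 85.2% of them.

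Hexamer and pentamer stood in the same promoter in 18 of 32 mitotic genes (56.3%) against 7.26% of all genes. The 10 genes with a promoter but no hexamer were CCNB1, PTTG1, AURKB, NEK2, BUB1, MAD1L1, ENSA, MYBL2, SGO1 and SGO2. ANLN, BUB1B, MASTL, MAD1L1 and MYBL2 held no pentamer. In all, the member promoters held 37 hexamers, and 21 of them (56.8%) began between 50 bases before and 24 bases after the start, where 22.1% of the 6238 hexamers of all promoters began. That stretch was chosen after the positions were seen. Of these 21, 17 had a pentamer upstream, with a median distance of 44 bases between first letters and a range of 17 (ESPL1) to 253 (MAD2L1). Since 27 of the 32 genes held a pentamer, many hexamers would have one upstream in any case. The like share and distances over all promoters were not computed, and no preferred spacing was tested. The median of the mean FPKM was 51.7 for the 22 genes with the hexamer (13.2 to 149) and 49.4 for the 10 genes without (14.1 to 301), so the levels of the 2 sets overlapped.

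**Figure D2:**
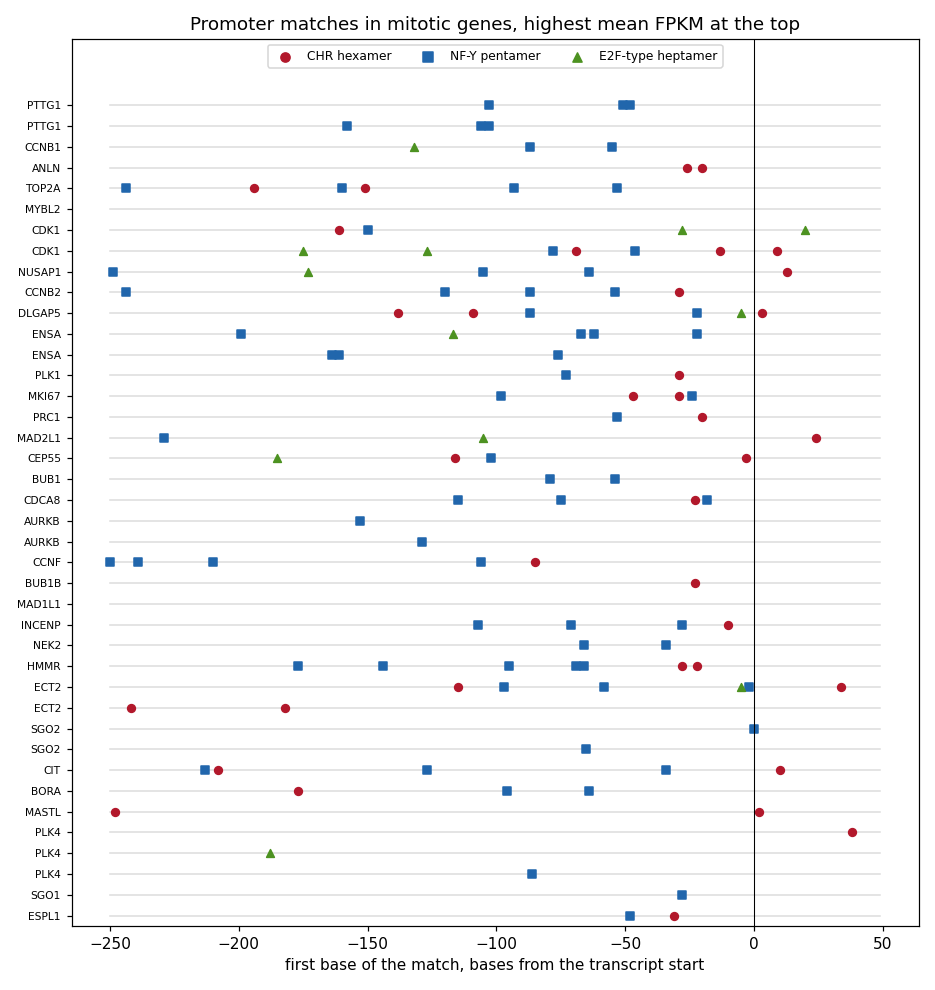
Each line is 1 of the 40 RefSeq promoters, ordered by the mean FPKM of its gene with the highest at the top, and symbols mark the first base of each match by its distance in bases from the transcript start. Hexamers gather near the start, with 21 of 37 between -50 and 24.

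All 42 genes had the status OK and stood at FPKM 1 or more in both libraries, and also at FPKM 5 or more. Across all named genes 39.5% reached FPKM 1 in both. The median of the 42 was 52.1 in replicate 1 and 54.5 in replicate 2. Of the 42, 41 had a mean above the median of detected genes (11.8), 30 were above their 75th percentile (27.4) and 16 above their 90th (63.2). The exception at the median was HASPIN. From the highest, PTTG1, to the lowest, HASPIN, the mean levels spanned 35.1-fold: 11 genes were over 100, 22 between 20 and 100, and 9 under 20. In RNA of whole cultures, fewer cells in or near mitosis and less RNA per cell cannot be told apart. All levels are of RNA, and they do not give amounts of protein or the make-up of protein complexes. Below, 2 values or 2 ratios given for a gene are those of replicate 1 and of replicate 2.

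**Figure D3:**
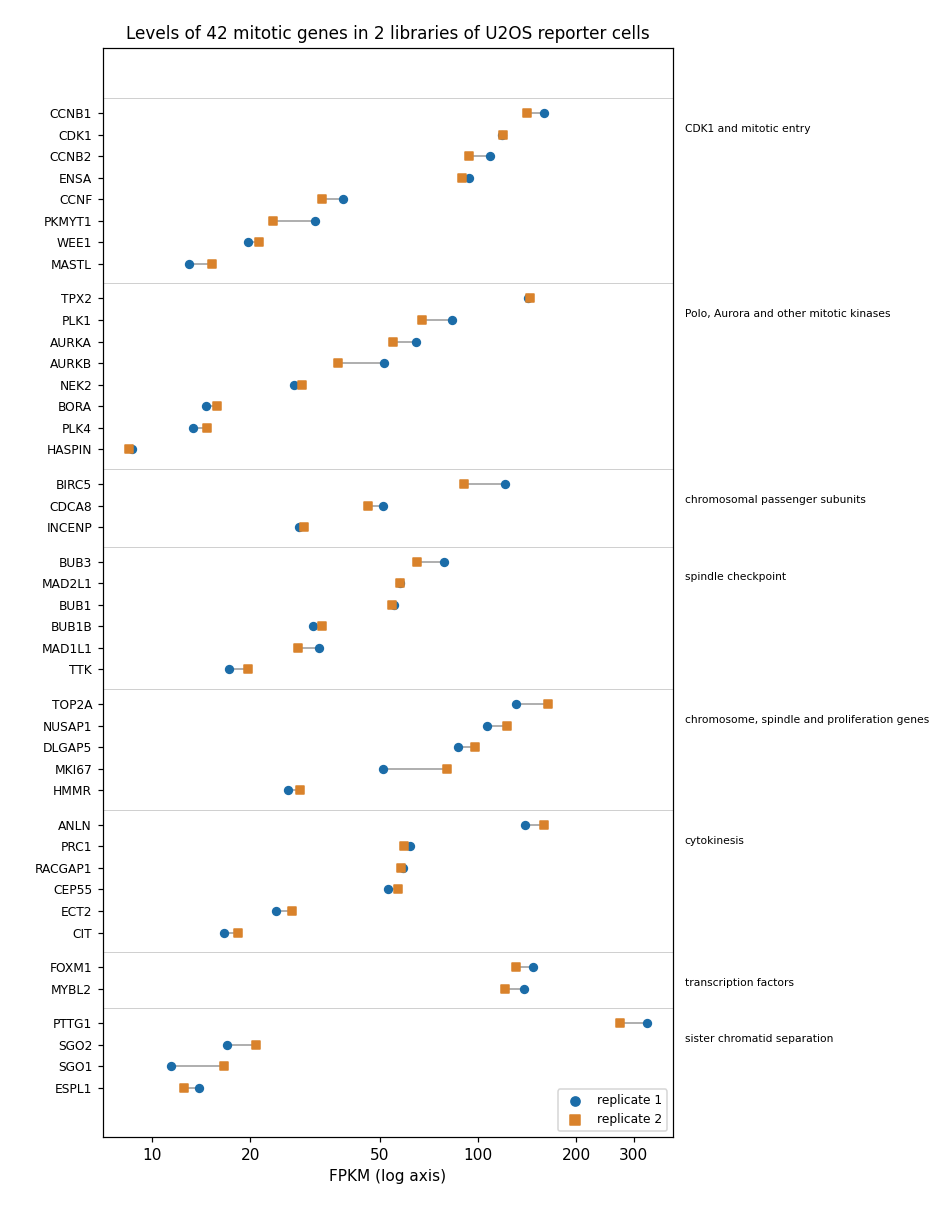
FPKM on a log axis of the 42 genes in replicate 1 (circles) and replicate 2 (squares), by role and by mean level within a role. The levels run from 8.69 and 8.48 for HASPIN to 329.9 and 272 for PTTG1, and in 33 of 41 pairs of neighbours the means lie closer together than the larger SD of the pair.

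Among the genes of mitotic entry, the cyclin CCNB1 was the highest, at 159 FPKM in replicate 1 and 141 in replicate 2 (150.2 ± 13.04, SD, n = 2). Its locus in the files is GRCh38 chromosome 5, 69167010 to 69178245. The kinase CDK1 (chromosome 10, 60772976 to 60794852) stood at 118.5 and 119.3, with a mean of 118.9 ± 0.513. CCNB1 was therefore 1.34 and 1.18 times as high as CDK1 per length of transcript. CCNB2 was at 108.8 and 93.7, so that CCNB1 was 1.47 and 1.504 times as high. CCNF, a cyclin that serves as the substrate receptor of a ubiquitin ligase, was lower, at 38.6 and 33.1.

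RNA of the inhibitory kinases was well below that of their target. WEE1, which acts in the nucleus, was at 19.6 and 21.2, and PKMYT1, which sits on internal membranes, was at 31.7 and 23.6. PKMYT1 was above WEE1 in both libraries, by 1.61 and 1.11 times, but its own SD of 5.73 exceeded the gap in replicate 2. PAQR4, whose span overlaps that of PKMYT1, was at 20.9 and 13.1, and whether strand was used in quantification is not given in the sources used here. ENSA, the PP2A inhibitor, was at 93.7 and 89.1. MASTL, the kinase that switches ENSA on, was the lowest of the group, at 12.98 and 15.2 (14.1 ± 1.58; chromosome 10, 27154824 to 27186919), and it is overlapped by ACBD5, at 3.38 and 4.28. RNA of the substrate was thus 7.22 and 5.85 times as high as that of its kinase. ARPP19, the relative of ENSA with the same role, was lower than ENSA by 4.98 and 3.96 times.

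Of the kinases and their activators, TPX2, which targets and activates Aurora A on spindle microtubules, was the highest, at 142 and 145 (143.5 ± 1.61; chromosome 20, 31739101 to 31801802). PLK1, the Polo kinase of mitotic entry and spindle assembly, followed at 83.4 and 67.3 (75.3 ± 11.4; chromosome 16, 23678880 to 23690367). PLK4, which starts centriole duplication, was at 13.4 and 14.8. Between the Polo kinases the gap was 6.24-fold and 4.55-fold. AURKA, the centrosome and spindle kinase, stood at 64.3 and 54.7, and AURKB, the catalytic subunit of the chromosomal passenger complex, at 51.3 and 37.1. As deposited, AURKA was 1.25 and 1.476 times as high as AURKB, but in replicate 1 its value holds an assembled transcript at 13.6. On reference transcripts alone AURKA was at 50.8 in replicate 1 and 54.7 in replicate 2, so that it was no longer above AURKB in replicate 1 and its difference between libraries turned round. TPX2 exceeded AURKA by 2.21 and 2.64 times as deposited. AURKAP1, a processed copy of AURKA, was at 1.32 and 1.49, and reads of the copy may not have been told apart from those of AURKA.

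NEK2, a centrosome kinase that separates centrosomes, was at 27.2 and 28.8. BORA, the cofactor with which Aurora A activates PLK1, was at 14.6 and 15.8, and it overlaps DIS3, an RNA exosome subunit at 15.3 and 17.8. HASPIN, the kinase that marks histone H3 at centromeres, was the lowest of all 42, at 8.69 and 8.48 (8.59 ± 0.143; chromosome 17, 3723903 to 3728493 in replicate 1). It lies within the span of the integrin gene ITGAE, which was at 1.75 and 11.1. Only 65.3% and 52.7% of the HASPIN value belonged to its reference transcript, at 5.68 and 4.48, and the rest was assembled sequence at the locus.

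The chromosomal passenger complex joins AURKB to INCENP, survivin (BIRC5) and borealin (CDCA8). Their RNA levels were not equal. BIRC5 was the highest, at 121 and 90.7 (105.7 ± 21.1; chromosome 17, 78214196 to 78225635). CDCA8 was at 51.0 and 46.0 (48.5 ± 3.49; chromosome 1, 37692401 to 37709719), and INCENP, the scaffold, was at 28.1 and 29.2 (28.7 ± 0.740; chromosome 11, 62123973 to 62155627 in replicate 1). On reference transcripts alone INCENP was at 21.2 and 19.7, which turns round its small difference between libraries. In both libraries the order was BIRC5, CDCA8, INCENP, with BIRC5 4.29 and 3.11 times as high as INCENP and 2.35 and 2.45 times as high as AURKB.

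In the spindle checkpoint, BUB3, a kinetochore adaptor, was the highest at 78.4 and 64.97 (71.7 ± 9.47; chromosome 10, 123154244 to 123165370). MAD2L1, the protein that binds and holds CDC20, was almost the same in both libraries, at 57.7 and 57.7 (57.7 ± 0.0385; chromosome 4, 120059422 to 120066858). The kinase BUB1 was at 55.2 and 54.3, and its relative BUB1B (BubR1), which forms part of the inhibitory complex, at 31.1 and 33.2. BUB1B shares its locus with PAK6, so its value is that of its own reference transcript and carries no confidence bound. MAD1L1, which anchors MAD2L1 at kinetochores, was at 32.5 and 28.0. TTK (MPS1), the kinase that starts the signal, was the lowest at 17.2 and 19.7 (18.5 ± 1.80; chromosome 6, 80004605 to 80042527). The checkpoint kinases differed, BUB1 being 3.21 and 2.75 times as high as TTK, and MAD2L1 stood 1.78 and 2.06 times above MAD1L1.

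Among chromosome, spindle and proliferation genes, TOP2A, the topoisomerase that untangles sister chromatids, was at 131 and 163 (147.0 ± 23.1; chromosome 17, 40388521 to 40417950). NUSAP1, a microtubule-bundling protein, was at 106 and 123 (114.7 ± 11.5; chromosome 15, 41332694 to 41381050). DLGAP5 (HURP), which stabilises kinetochore fibres, was at 86.8 and 97.7. MKI67, the Ki-67 antigen that coats mitotic chromosomes and marks proliferating cells, was at 51.0 and 80.2. HMMR, a spindle protein first known as a hyaluronan receptor, was the lowest at 26.04 and 28.4 (27.2 ± 1.65; chromosome 5, 163460511 to 163491945). All 5 of these genes were lower in replicate 1 than in replicate 2.

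ANLN (anillin), which links the contractile ring to the membrane, led the cytokinesis genes at 139 and 159 (149.3 ± 14.4; chromosome 7, 36389806 to 36453791). PRC1, which bundles the microtubules of the central spindle, was at 61.8 and 59.4 (60.6 ± 1.75; chromosome 15, 90966038 to 90994651). RACGAP1, a subunit of the centralspindlin complex, was at 58.9 and 57.9, and the other subunit, the kinesin KIF23, was 1.29 and 1.58 times as high. ECT2, the exchange factor that activates RHOA at the cell equator, was at 24.02 and 26.8, so that RACGAP1, its activator, was 2.45 and 2.16 times as high. CEP55, which recruits the abscission machinery to the midbody, was at 53.0 and 56.7. CIT (citron kinase), a midbody organiser, was the lowest at 16.6 and 18.4 (17.5 ± 1.28; chromosome 12, 119685700 to 119877291 in replicate 1). As deposited, ANLN was 8.39 and 8.67 times as high as CIT. On reference transcripts alone CIT was at 12.5 and 16.5, and ANLN was 11.1 and 9.67 times as high.

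The transcription factors that drive late-cycle genes were both high. FOXM1 was at 147 and 131 (138.9 ± 11.2; chromosome 12, 2857677 to 2877194 in replicate 1) and MYBL2 (B-MYB) at 139 and 121 (129.8 ± 12.4; chromosome 20, 43667019 to 43716496). As deposited, FOXM1 was 1.06 and 1.08 times as high as MYBL2, a gap smaller than the SD of either gene. In replicate 1 the FOXM1 value holds an assembled transcript at 34.2. On its own reference transcripts FOXM1 was at 113 in replicate 1 and 131 in replicate 2, which turns round both its difference between libraries and, in replicate 1, its order against MYBL2. RHNO1, which overlaps the start of FOXM1, was at 59.2 and 56.2, and ITFG2, at its other end, at 6.48 and 6.13.

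At sister chromatid separation, RNA of the inhibitor far exceeded that of the protease per length of transcript (768 bases for PTTG1 and 6623 for ESPL1). PTTG1 (securin) was at 329.9 and 272 (301.2 ± 40.7; chromosome 5, 160421807 to 160428744), the highest of the 42, while its near copy PTTG2 was listed at 0. ESPL1 (separase) was at 13.9 and 12.6 (13.2 ± 0.971; chromosome 12, 53268293 to 53293643), and PTTG1 was 23.7 and 21.7 times as high. SGO2 and SGO1, the shugoshins that protect cohesin at centromeres, were at 17.0 and 20.8 (18.9 ± 2.68; chromosome 2, 200526142 to 200584095) and at 11.5 and 16.7. On reference transcripts alone SGO2 was at 17.0 and 18.3, and SGO1 was at 6.89 and 12.2, which is 60.1% and 73.2% of its locus value. SGO1-AS1, an antisense gene within the SGO1 span, was at 10.7 in replicate 1 and listed at 0 in replicate 2. Summed with it, SGO1 was at 22.2 and 16.7, so its lower level in replicate 1 turned round. Without strand in the counting, reads of the pair cannot be told apart.

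The order of the 42 levels was largely shared. Of the 861 pairs of genes, 809 (94.0%) stood in the same order in both libraries. This share was not computed for other sets of genes, so it is not shown to be particular to these 42. Neighbours in the order of mean levels were mostly close: in 33 of 41 neighbour pairs the means differed by less than the larger of the SDs of the pair. The 8 exceptions were PTTG1 over CCNB1, ENSA over PLK1, RACGAP1 over MAD2L1, MAD2L1 over CEP55, BUB1 over CDCA8, ECT2 over WEE1, CIT over BORA, and ESPL1 over HASPIN. From CCNB1 down to ENSA, 12 genes ran from 150.2 to 91.4 with no such step. This rule takes no account of order within each library. Some of the 33 close pairs kept their order, as AURKB over CCNF (51.3 over 38.6 and 37.1 over 33.1). Others changed it, as CCNB1 with ANLN (159 over 139 and 141 under 159). Some of the steps rest on small SDs. Deposited bounds overlapped in both libraries for RACGAP1 with MAD2L1, in replicate 2 for MAD2L1 with CEP55, and in replicate 1 for CIT with BORA. On reference transcripts alone CIT was below BORA in replicate 1, at 12.5 against 14.6.

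Differences between the libraries were small. On the scale of log2(FPKM + 1), replicate 1 over replicate 2, 0 of 42 genes differed 2-fold or more, where 2.81% of the 12420 genes that reached FPKM 1 in either library did. The ratios ran from -0.64 (MKI67) to 0.46 (AURKB) with a median of -0.01, and the median of all genes was 0.04. As deposited, MKI67 was the 1 member past 1.5-fold. On reference transcripts alone SGO1 had the lowest ratio, at -0.74, and was past 1.5-fold too. The share of all genes past 1.5-fold was not computed, so nothing is read from the number of members past it. The SD of the ratio was 0.24 over the 42 genes and 0.56 over all genes, and by the median absolute deviation, which gives extreme genes little weight, the spreads were close, at 0.25 and 0.28. Deposited confidence bounds did not overlap for 27 of 41 genes with bounds, 15 higher in replicate 1 and 12 higher in replicate 2. Over all genes 56.2% did not overlap (33.9% higher in replicate 1 and 22.2% higher in replicate 2), and 64% of genes within the same range of levels. These bounds cover the estimate within a library and not the spread between libraries.

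Which genes were higher in which library went with transcript length and GC content. Of the 42, 20 were higher in replicate 1 and 22 in replicate 2. Scaled to a common sum of FPKM, 11 were higher in replicate 1 and 31 in replicate 2, and this scaling shifts the median of all genes by -0.16. Relative to the median of all genes, 17 members lay above it and 25 below as deposited, and 16 above and 26 below after scaling. Among the 21 shorter genes (768 to 2828 bases) 14 were higher in replicate 1, with a median ratio of 0.18 against 0.17 for all genes of such length. Among the 21 longer genes (3005 to 11744 bases) 6 were higher in replicate 1, with a median ratio of -0.12 against -0.07.

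Spearman's rho of the ratio was -0.54 with length and 0.68 with GC content over the 42 genes, and -0.47 and 0.58 over 11959 genes. These are descriptions across genes of the same 2 libraries, and genes are not independent replicates. MKI67 has the longest transcripts of the 42 and PTTG1 the shortest, and their ratios were -0.64 and 0.28. With the trend over length and GC content of all genes removed, MKI67 stood at -0.25, AURKB at 0.19 and TOP2A, -0.32 before, at -0.08. The range was then -0.46 (SGO1) to 0.26 (BIRC5), with an SD of 0.14. The 5 chromosome, spindle and proliferation genes had a median ratio of -0.20, and after removal of the trend all 5 were still below 0, from -0.25 (MKI67) to -0.02 (HMMR). The median after removal was -0.03 over the 42 genes, with HMMR above it, and 0.002 over all genes.

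**Figure D4:**
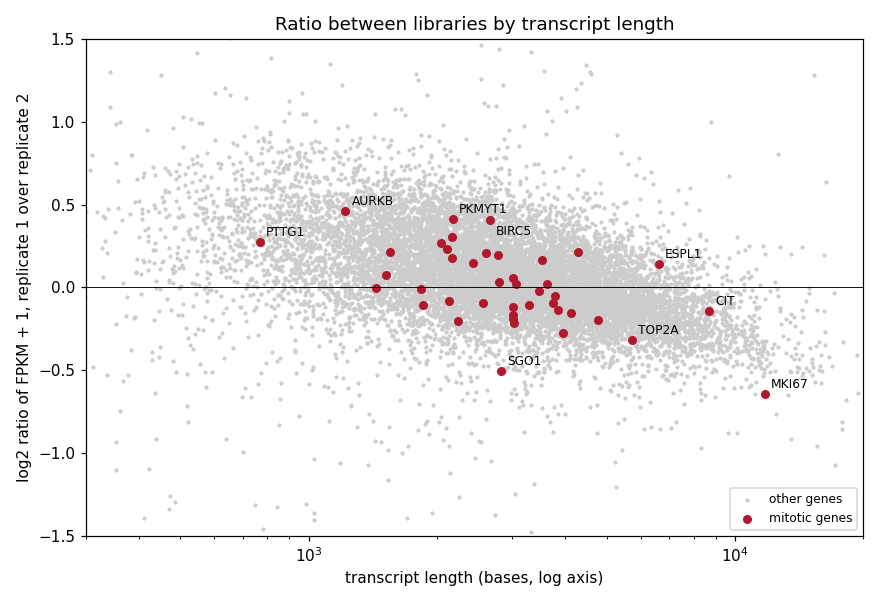
Log2 ratio of FPKM + 1, replicate 1 over replicate 2, against transcript length in bases on a log axis, for mitotic genes (red) and other genes (grey); 375 genes lie outside the plotted range. The cloud falls with length, and the mitotic genes lie in it, from PTTG1 and AURKB at the short end to MKI67 at the long end.

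The transcript tables give the models behind each level. In 34 of 42 genes the reference transcript with the highest FPKM was the same in both libraries, with a coverage of 24.9 to 1909 over the 42 main transcripts in either library. In 12 genes the main transcript held over 90% of the reference transcripts' FPKM in both libraries, among them CCNB1, CCNB2, CCNF, PLK1, AURKB, MAD2L1, PTTG1 and ESPL1. For CCNB1, CCNB2, CCNF, PLK1, HASPIN, BUB1B and MAD2L1 only 1 reference transcript was listed. Their full share and their constant leader were thus fixed in advance. Shares over all genes were not computed for these counts. In 16 genes it held under 60% in at least 1 library. Assembled transcripts added to the level of 7 genes, AURKA, HASPIN, INCENP, CIT, FOXM1, SGO1 and SGO2.

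For 8 genes the leading model differed between the libraries. In 6 of them the competing models differ little in length. WEE1 was led by a model of 3359 bases at 11.6 FPKM in replicate 1 and by one of 3219 bases at 14.01 in replicate 2. For CDCA8 the leading models had 2486 bases (29.1 in replicate 1) and 2389 bases (33.6 in replicate 2). BUB1 was led by 3636 bases in replicate 1 (39.9) and 3576 bases in replicate 2 (28.7), and CEP55 by 2638 bases in replicate 1 (29.2) and 2516 bases in replicate 2 (40.5). TOP2A was led by 5753 bases in replicate 1 (86.1) and 5691 bases in replicate 2 (89.4), and CIT by 8708 bases in replicate 1 (7.55) and 8653 bases in replicate 2 (9.07). In BUB1 the shorter model was at 15.3 in replicate 1 and the longer at 25.6 in replicate 2, so both models moved while the gene was at 55.2 and 54.3.

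BUB3 and MAD1L1 had models further apart. The BUB3 model of 1537 bases was at 52.0 in replicate 1 and 31.9 in replicate 2, while that of 2764 bases was at 26.3 and 33.1. In MAD1L1 the model of 2698 bases stood first in replicate 1 at 12.999, almost level with one of 2701 bases at 12.9. A model of 2463 bases, absent from replicate 1, led replicate 2 at 11.4. Some genes with a constant leader also split differently. ENSA was led by 1239 bases at 74.6 and 49.9, and a model of 1103 bases was absent from replicate 1 and at 23.7 in replicate 2. CDK1 was led by a model of 1818 bases at 88.1 and 99.9, with the model of 1913 bases at 30.4 and 19.4. These splits are estimates over models that share most of their sequence.

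**Figure D5:**
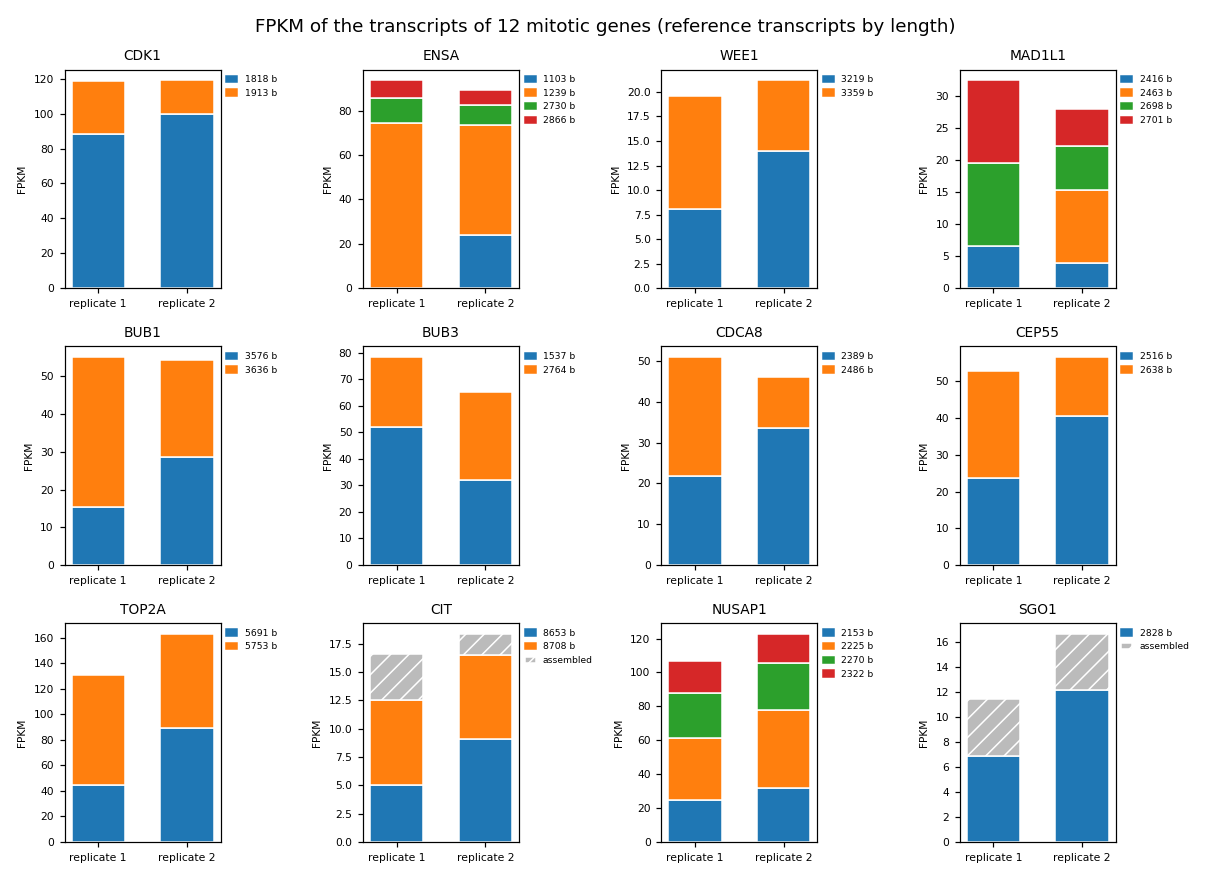
Stacked bars give the FPKM of each reference transcript, named by its length in bases (b), and of assembled transcripts (hatched) for 12 genes in replicate 1 and replicate 2. The whole bars of CDK1, ENSA, BUB1 and CEP55 are of similar height in both libraries while their parts shift, as in ENSA (1103 b: absent in replicate 1 and 23.7 in replicate 2).

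Genes that work with the 42 were expressed almost throughout: 67 of 68 measured genes of the 5 mitotic partner lists were at FPKM 1 or more in both libraries, against 39.5% of all named genes. With the 30 replication genes, listed for comparison, they were 97 of 98, and 0 differed 2-fold between libraries. FZR1, an activator of the anaphase-promoting complex, stands in 2 of the lists and counts in both. All 14 partners of the CDK1 switch were detected. CKS2 (210 in replicate 1 and 157 in replicate 2) and CKS1B (172 and 131), small subunits that bind CDK1, and PPP2R1A (125 and 92.3), the PP2A scaffold, were the highest of them. CDC25B and CDC25C, the phosphatases that release CDK1, were at 52.9 and 43.4 and at 13.1 and 9.88.

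Of the Aurora, Polo and NEK partners, 13 of 14 measured were detected, led by PLK2 (71.5 and 73.5), the microtubule polymerase CKAP5 (52.5 and 60.3) and AJUBA (57.6 and 49.5), an Aurora A cofactor. PLK5, the divergent Polo family member, was the exception at 0.00757 and 0.0314. AURKC, the Aurora kinase of germ cells, was at 2.34 and 2.09, far below AURKA and AURKB. CEP192, which recruits Aurora A and PLK4 to centrosomes, had a failed status in replicate 2 and was left out.

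All 15 checkpoint and anaphase partners were detected, led by UBE2S (292 and 182) and UBE2C (218 and 173), ubiquitin-conjugating enzymes of the anaphase-promoting complex, and by its activator CDC20 (232 and 164). All 16 cytokinesis partners were detected, with RHOA (341 and 308), the GTPase that ECT2 activates, MYH9 (219 and 256), a myosin of the contractile ring, and SEPTIN9 (132 and 106), a ring filament protein, at the top. The MuvB subunits and partners of MYBL2 and FOXM1, 9 of 9 detected, were lower as a list, with a median of 13.8. CDK2 (55.3 and 51.8) and CCNE1 (38.5 and 38.8), kinase and cyclin of S phase entry, and RBBP4 (19.9 and 21.9), a histone-binding subunit, were the highest of them. Of the other MuvB subunits, LIN52 was at 13.5 and 14.2, and LIN9, LIN37 and LIN54 were between 4.74 and 9.99. FOXM1 and MYBL2 themselves thus stood above every measured MuvB subunit. The 30 replication genes were all detected, with a median of 43.3 against 54.8 for the 42 mitotic genes, and MCM7 (273 and 223), TYMS (249 and 206) and PCNA (204 and 210.1) were the highest.

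Of markers of other tissues, 0 of 6 haematopoietic genes (summed 0.502 and 0.747 FPKM) and 0 of 4 endothelial genes (0.703 and 0.612) reached FPKM 1. Epithelial genes reached it in 2 of 5, EPCAM (11.98 and 13.8) and CDH1 (2.36 and 1.17). Of 9 osteoblast markers, 5 did, SPARC (312 and 297), COL1A1 (69.2 and 82.6), RUNX2, ALPL and SPP1. COL1A2 (0.0679 and 0.0809) and SP7 (0.0104 and 0.0108) were near 0, and the files list BGLAP and IBSP at 0. The median coverage per unit of FPKM was 5.78 for replicate 1 and 5.57 for replicate 2, so depth was close in relative terms; the number of reads behind each library is unknown here.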

How the data were processed

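The authors deposited FPKM per locus and per transcript, with confidence bounds and a status, and a coverage value per transcript (depth of read coverage), per the file headers. Cufflinks 2.2.1 is named in the submitters' processing notes beside TopHat2 2.0.13 and Bowtie2 2.2.3, with reads handled by Trimmomatic 0.32 and FastQC 0.11.2, and the build is GRCh38. The library kit was directional, per the labels' protocols; the use of strand in quantification and the annotation are not stated in those notes.

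Symbols came from RefSeq accessions (NCBI table of GRCh38.p14 or GENCODE 29) or from names in the files. A gene's level is that of its locus, or the sum of its own reference transcripts where several symbols share a locus. Of 29863 named genes, 44 with a failed status were left out. Locus starts were raised by 1. Genes at FPKM 1 counted as detected. Ratios used a pseudocount of 1 over genes that reached FPKM 1 in either library, and are understated for low genes. Python 3.11.15 was used with numpy 2.4.6, pandas 2.3.3, matplotlib 3.10.9 and scipy 1.17.1, and the ratio code was tested on simulated data. With 1 group of 2 libraries no test was run. Alternatives were other thresholds, pseudocounts and filters, a common sum, own reference transcripts, entries of any status, removal of the trend over length and GC content, other motif letters, a shorter promoter, and leaving out each library.

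The members and lists were chosen with earlier results of these data known. All 42 members, the 3 highest genes of each partner list and those not detected were named by rule; CDC25B, CDC25C, ARPP19, KIF23, AURKC, the MuvB subunits, overlapping genes and near copies were named for their role or position.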

Additional observations from a re-analysis of the deposited data

How the results depend on the processing

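Of 33 values recomputed under an alternative, 32 counted as kept, and the 1 that moved was the median level without replicate 2. The margins behind these labels are not given here. The counts of 42 of 42 genes detected, 0 past 2-fold and 34 genes with the same main transcript did not change under any alternative run for them. Several of these alternatives could not change them. All 42 had the status OK and levels above FPKM 5, so entries of any status and filters on low values left the members as they were. Every leading model was above FPKM 1, so the cut of models at that level could not change a leader. The median level, 54.8, was 52.1 to 54.5 when leaving out each replicate in turn, and 53.7 and 55.0 with own reference transcripts and a common sum. On own reference transcripts 3 genes, AURKA, INCENP and FOXM1, changed direction between the libraries, as did the order in 2 of 26 pairs of members, AURKA with AURKB and FOXM1 with MYBL2, in replicate 1. The median ratio of -0.01 became -0.19 with a common sum, relative to a median of all genes that moved to -0.12, and -0.03 with the length and GC trend removed. It counted as kept, although the genes higher in replicate 1 fell from 20 to 11 with a common sum. Genes with the hexamer numbered 24 when TTCGAA also counted, and 20 in the last 150 bases of the promoter. Of the partner and replication genes, 94 were at FPKM 5 or more. No paired analysis was possible because the libraries form 1 group and no test was run. A planned count of protein motifs was not run, as no protein sequences were used here.

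With 2 libraries the SDs are coarse. FPKM carries no count, so intervals from depth cannot be given. Splits between models, and levels of the 6 genes that an expressed gene overlaps (SGO1, HASPIN, PKMYT1, BORA, FOXM1 and MASTL), are uncertain.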
